A study of Mus musculus with 48 samples.

Results

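The liver levels of 8 genes of the Slc22 family of organic ion transporters were followed across every dose, sex and genotype of the study. Slc22a5, Slc22a7, Slc22a18, Slc22a26, Slc22a27, Slc22a28, Slc22a29 and Slc22a30 were taken by their symbols from the count tables, and all 8 were found among 40847 genes. Perfluorooctanesulfonate (PFOS), a persistent perfluorinated surfactant, was given by oral gavage for 21 days at 0, 1 or 10 mg/kg/day (0-PFOS, 1-PFOS and 10-PFOS), and the 0-PFOS mice received the vehicle of water with 0.5% Tween 20. Female and male mice were between 10 and 12 weeks old and of 2 genotypes. The hCYP2B6-Tg mice carried a human CYP2B6/2A13/2F1 transgene on the Cyp2b-null background. The Cyp2b-null mice carried a CRISPR deletion of Cyp2b9, Cyp2b10 and Cyp2b13 on C57BL/6J, so every mouse in the study, untreated ones included, is described as lacking these Cyp2b genes. Each of the 12 groups had 4 livers, each from its own mouse, and the 48 libraries were polyA-selected and sequenced as paired reads of 150 bases.

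Slc22 proteins sit in cell membranes and move charged small molecules, among them carnitine, bile acid and steroid conjugates, drugs and metabolites. Slc22a5 (Octn2) is the high-affinity carnitine importer, and carnitine carries long-chain fatty acids into mitochondria for oxidation. Slc22a7 (Oat2) is an organic anion transporter of the hepatocyte's blood-facing membrane. Slc22a18 is an orphan organic cation transporter-like protein encoded by an imprinted gene. Slc22a26, Slc22a27, Slc22a28, Slc22a29 and Slc22a30 are members of a rodent organic anion transporter cluster with less well characterised substrates. Liver genes of this kind are known in mice to differ between females and males under the control of growth hormone, and PFOS is known as an activator of the nuclear receptors PPARα and CAR.

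The promoters of the cluster members are shown first, because the start regions of Slc22a28 and Slc22a30 were near copies. Whether this likeness has a part in their levels was not tested. Slc22a5 lies on chromosome 11, Slc22a7 on chromosome 17, Slc22a18 on chromosome 7 and the 5 cluster members on chromosome 19. Promoters from RefSeq (GRCm38.p6, 250 bases before to 50 after each gene's start) were found for 7 of the 8 genes, Slc22a7 being the exception. All 4 below lie on the minus strand and are written 5′ to 3′, at chr19:8131933-8132232 (Slc22a28), chr19:8218851-8219150 (Slc22a29), chr19:8405056-8405355 (Slc22a30) and chr19:7802618-7802917 (Slc22a26). Capitals in the first 3 mark the longest run of bases (22) that they share exactly. Capitals in Slc22a26 mark its match to the STAT element TTCNNNGAA, which begins at base 110 of the window.
Slc22a28: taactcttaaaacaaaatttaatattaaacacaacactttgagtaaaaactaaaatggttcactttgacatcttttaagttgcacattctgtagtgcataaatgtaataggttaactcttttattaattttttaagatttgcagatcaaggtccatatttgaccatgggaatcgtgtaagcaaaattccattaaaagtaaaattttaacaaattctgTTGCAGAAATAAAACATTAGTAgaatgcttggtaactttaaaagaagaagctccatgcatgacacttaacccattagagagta
Slc22a29: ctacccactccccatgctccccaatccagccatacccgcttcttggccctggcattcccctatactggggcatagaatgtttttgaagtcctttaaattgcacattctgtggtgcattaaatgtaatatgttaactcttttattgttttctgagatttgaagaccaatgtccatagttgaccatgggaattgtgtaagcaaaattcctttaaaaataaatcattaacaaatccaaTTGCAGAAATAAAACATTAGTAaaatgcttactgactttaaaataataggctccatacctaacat
Slc22a30: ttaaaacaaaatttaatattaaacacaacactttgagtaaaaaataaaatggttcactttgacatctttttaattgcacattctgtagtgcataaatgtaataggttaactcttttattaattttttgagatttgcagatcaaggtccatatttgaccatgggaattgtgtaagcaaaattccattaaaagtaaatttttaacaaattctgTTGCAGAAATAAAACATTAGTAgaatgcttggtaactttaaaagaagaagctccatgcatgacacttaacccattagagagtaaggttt
Slc22a26: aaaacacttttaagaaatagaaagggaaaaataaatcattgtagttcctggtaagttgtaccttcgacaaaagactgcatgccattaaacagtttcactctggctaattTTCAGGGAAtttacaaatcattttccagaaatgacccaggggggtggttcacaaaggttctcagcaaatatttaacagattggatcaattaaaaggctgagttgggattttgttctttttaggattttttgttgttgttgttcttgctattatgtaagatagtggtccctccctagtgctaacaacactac

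In a global alignment, the promoters of Slc22a28 and Slc22a30 were 94.1% identical (288 of 306 aligned columns). Slc22a29 was 68.0% identical to Slc22a28 and 68.1% identical to Slc22a30. Slc22a26 and Slc22a27 were between 47.6% and 54.9% identical to the other cluster promoters and to each other. The promoters of Slc22a5 and Slc22a18, on other chromosomes, were between 39.7% and 51.7% identical to the cluster promoters and 50.6% identical to each other. Of the 3 motifs searched on both strands, TTCNNNGAA was found in Slc22a26 alone of the 7 promoters, and in 8.30% of 32851 promoters of this length. AGGTCA, a nuclear receptor half-site, was found in Slc22a27 alone, and in 16.3% of all promoters. GTTAAT, an HNF1 half-site, was found in Slc22a29 alone, and in 7.10% of all promoters. These matches describe the letters of the windows and are not mapped binding sites.

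Total counts ran between 44416597 and 82615862 per library, and every member had a count above 0 in all 48 libraries. Levels are given in CPM, each gene's count relative to the total of its library after trimmed-mean (TMM) scaling of those totals. Counts were assigned to the deleted genes in all 48 libraries: Cyp2b10 ran at 0.324 to 1.56 CPM at 0-PFOS, 1.44 to 6.07 CPM at 1-PFOS and 10.8 to 20.3 CPM at 10-PFOS, and Cyp2b9 and Cyp2b13 reached 34.9 and 7.396 CPM at 10-PFOS. The source of these counts was not tested, and the genotypes are given by their labels. The 5 hepatocyte markers averaged above 1 CPM in every group, while no lymphocyte, neutrophil or kidney tubule marker averaged above 1 CPM in any group. The summed hepatocyte marker level (albumin, transthyretin, apolipoprotein A1, transferrin and Cps1) was 64430 to 96820 CPM at 0-PFOS, 47250 to 85110 CPM at 1-PFOS and 28200 to 44010 CPM at 10-PFOS, with no overlap between the lowest and the highest dose. The Kupffer cell marker sum was 60.4 to 287 CPM at 0-PFOS, 73.3 to 216 CPM at 1-PFOS and 52.4 to 132 CPM at 10-PFOS. Sums at these doses were 88.1 to 171, 79.0 to 171 and 90.9 to 154 CPM for sinusoidal endothelium, 161 to 349, 145 to 346 and 169.9 to 238 CPM for stellate cells, and 14.4 to 38.8, 13.4 to 37.7 and 10.7 to 26.3 CPM for cholangiocytes. In females alone the Kupffer sum was 183 to 287 CPM at 0-PFOS and 61.2 to 132 CPM at 10-PFOS, without overlap. The stellate sum in females was 260 to 349 and 172 to 238 CPM at these doses, also without overlap. Males of both genotypes together overlapped for the Kupffer and stellate lists. In hCYP2B6-Tg males alone the Kupffer sum was 91.3 to 133 CPM at 0-PFOS and 58.0 to 75.2 CPM at 10-PFOS, without overlap. In Cyp2b-null males it was 60.4 to 123 and 52.4 to 65.9 CPM at these doses, with overlap. The part of these marker changes in the results below was not tested, and in whole liver fewer cells of a type and less RNA per cell cannot be told apart.

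Counts of the cluster members were not independent of each other. The ratio of Slc22a27 to Slc22a29 counts stayed between 0.873 and 1.09 over the 48 libraries (median 0.973), and that of Slc22a28 to Slc22a30 stayed between 0.806 and 0.911 (median 0.853). The ratio of Slc22a26 to Slc22a28 ran between 0.00222 and 3.23, as the plot of paired counts shows. Of all 50-base stretches in the annotated Slc22a28 transcript, 53.3% also occurred in transcripts of Slc22a30, and 25.3% of those of Slc22a27 occurred in Slc22a29. Slc22a5, Slc22a7, Slc22a18 and Slc22a26 shared no 50-base stretch with another member. How reads that match several genes were counted is not stated in the sources at hand, so the levels of Slc22a27 and Slc22a29, and of Slc22a28 and Slc22a30, are uncertain for the single gene and are better read as 2 pairs. Counts were even numbers in 48 of 48 libraries for every member except Slc22a7 (23 of 48).

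**Figure D1:**
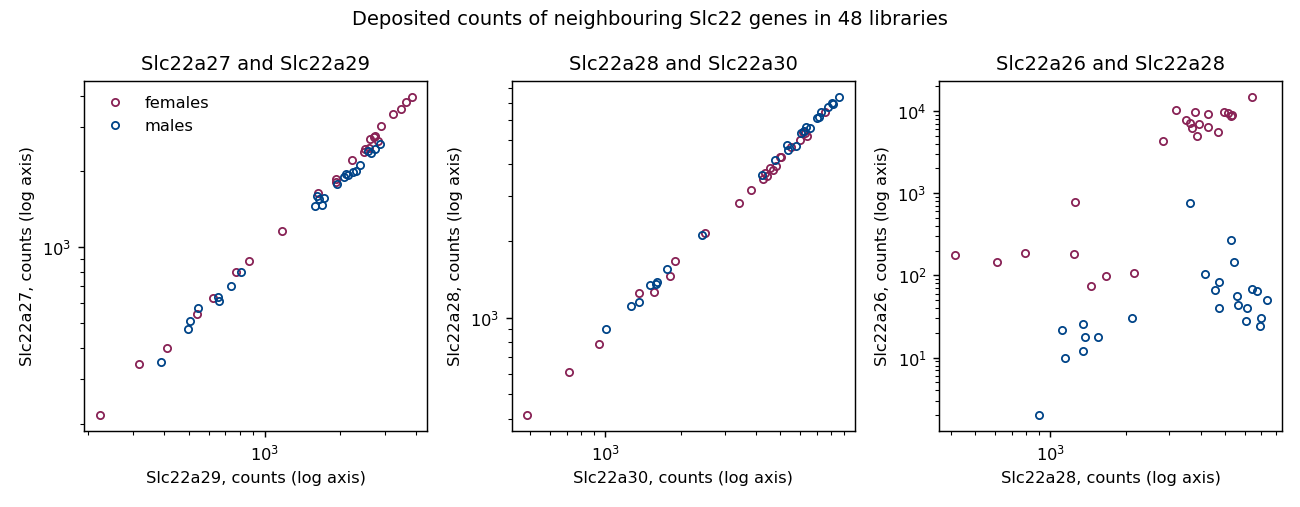
Counts of one cluster member against another in the 48 libraries, 1 point per library, on log axes (left, Slc22a27 and Slc22a29, middle, Slc22a28 and Slc22a30, right, Slc22a26 and Slc22a28). The first 2 pairs lie along a line, with count ratios of 0.873 to 1.09 and 0.806 to 0.911, while the ratio of Slc22a26 to Slc22a28 spans 0.00222 to 3.23.

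Untreated livers held the members at very different levels. Divided by exonic length, so that genes can be compared, Slc22a18 averaged 46.5 ± 3.39 CPM per kb in hCYP2B6-Tg females, 46.0 ± 4.99 in Cyp2b-null females, 50.1 ± 3.30 in hCYP2B6-Tg males and 52.0 ± 4.15 in Cyp2b-null males (SD, n = 4 each). Slc22a26 was the highest of the 8 in females, at 51.0 ± 3.903 CPM per kb with the transgene and 49.3 ± 6.88 without it. In males it was the lowest of the 8, at 0.376 ± 0.188 and 1.82 ± 1.74 CPM per kb in the same genotypes. Group means per kb of the other cluster members were 33.1 to 51.3 for Slc22a28, 23.5 to 35.4 for Slc22a30, 13.9 to 23.5 for Slc22a27 and 14.0 to 21.8 for Slc22a29. Slc22a5 lay below these at 7.93 to 10.3 and Slc22a7 at 3.50 to 5.63. Neighbours in this order whose means differed by less than the larger of their 2 SDs were Slc22a27 and Slc22a29 in males of both genotypes, Slc22a18 and Slc22a26 in Cyp2b-null females, Slc22a30 and both Slc22a28 and Slc22a27 in hCYP2B6-Tg females, and Slc22a18 and Slc22a28 in hCYP2B6-Tg males.

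The first question was how the transporters responded to the higher dose. At 10-PFOS, the carnitine importer Slc22a5 and the imprinted Slc22a18 rose in both sexes and genotypes, with log2 fold changes between 0.78 and 1.36. The anion transporter Slc22a7 and the 5 cluster members fell, with the lowest fold changes in Slc22a7 and Slc22a26 except in hCYP2B6-Tg males, where Slc22a26 was not among the lowest. All 8 genes passed the test in each of the 4 groups, 2 of them higher and 6 lower (edgeR's quasi-likelihood test with Benjamini-Hochberg adjustment over all genes tested, adjusted p below 0.05). In males Slc22a26 passed the filter on low counts (over 1 CPM in at least 3 mice of a group) through untreated Cyp2b-null mice alone. Its fall in Cyp2b-null males is therefore a description and adds nothing to these counts. Over all genes tested, the higher and lower shares called were 22.3% and 24.5% in hCYP2B6-Tg females, 19.1% and 17.8% in Cyp2b-null females, 24.1% and 23.9% in hCYP2B6-Tg males and 22.5% and 21.6% in Cyp2b-null males. The 4 treated mice did not overlap the 4 untreated mice for any of the 8 genes in any group, and the share of all tested genes without such overlap was 41.5% in hCYP2B6-Tg females, 37.7% in Cyp2b-null females, 43.8% in hCYP2B6-Tg males and 37.8% in Cyp2b-null males. The median log2 fold change of the 8 was -2.49, -1.57, -1.89 and -1.63 in these groups, in the same order, beside a median over all genes tested of -0.05, -0.01, -0.02 and -0.01. The 8 genes were chosen with earlier results of these data known. The p-values measure the spread between these mice, and the comparisons within a sex and genotype share their untreated mice.

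**Figure D2:**
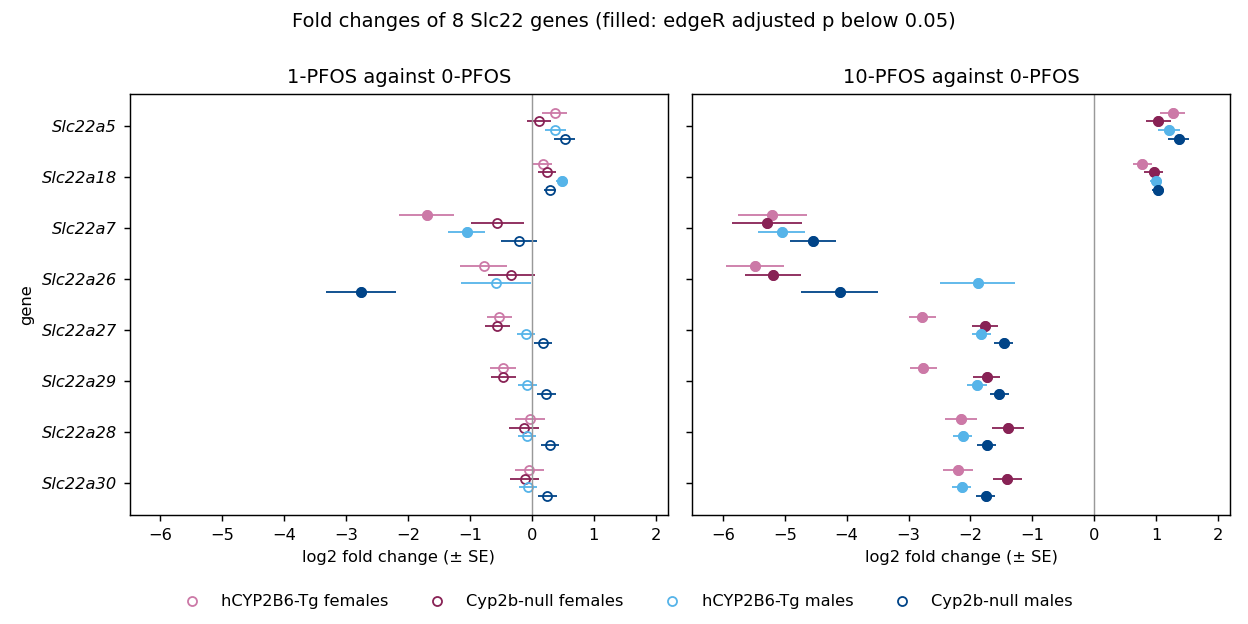
Log2 fold change (point) and its standard error (bar) of each of the 8 genes against 0-PFOS, at 1-PFOS and 10-PFOS, in each sex and genotype (4 mice per group). Filled points passed the adjusted p of 0.05: all 32 at 10-PFOS and 4 of 32 at 1-PFOS. Those of Slc22a26 in Cyp2b-null males are descriptions, since it passed the filter on low counts in males through their untreated mice alone. At 10-PFOS Slc22a7 and Slc22a26 lie lowest in every group but hCYP2B6-Tg males, where Slc22a26 lies among the other cluster members, and Slc22a5 and Slc22a18 lie above 0 in every group.

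Slc22a5, the carnitine importer, rose in every sex and genotype at 10-PFOS. In hCYP2B6-Tg females, Slc22a5 stood at 18.6, 43.0, 24.8 and 28.2 CPM at 0-PFOS, 41.5, 32.3, 44.0 and 31.6 CPM at 1-PFOS and 59.1, 85.4, 71.5 and 62.1 CPM at 10-PFOS. In Cyp2b-null females, Slc22a5 stood at 31.9, 29.2, 31.2 and 34.0 CPM at 0-PFOS, 38.6, 41.0, 22.4 and 35.8 CPM at 1-PFOS and 71.9, 63.3, 52.9 and 72.6 CPM at 10-PFOS. Every 10-PFOS female lay above every 0-PFOS and 1-PFOS female of its genotype, while the 0-PFOS and 1-PFOS females overlapped. In hCYP2B6-Tg males, Slc22a5 stood at 21.9, 29.4, 33.5 and 29.9 CPM at 0-PFOS, 36.7, 39.0, 32.7 and 40.8 CPM at 1-PFOS and 74.3, 62.9, 76.6 and 57.5 CPM at 10-PFOS. In Cyp2b-null males, Slc22a5 stood at 28.2, 17.8, 34.2 and 17.2 CPM at 0-PFOS, 35.0, 36.2, 33.1 and 36.5 CPM at 1-PFOS and 61.8, 59.4, 75.5 and 57.0 CPM at 10-PFOS. Males showed the same separation of 10-PFOS from both lower doses. Of the 4 untreated groups, hCYP2B6-Tg females spread most widely for this gene, with replicate 1 lowest at 18.6 CPM and replicate 2 highest at 43.0 CPM. The log2 fold change (± SE) of 10-PFOS against 0-PFOS by edgeR was 1.27 ± 0.20 (adjusted p = 2.3e-05) in hCYP2B6-Tg females, 1.03 ± 0.20 (adjusted p = 2.9e-04) in Cyp2b-null females, 1.21 ± 0.17 (adjusted p = 3.2e-06) in hCYP2B6-Tg males and 1.36 ± 0.17 (adjusted p = 7.3e-07) in Cyp2b-null males.

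Slc22a18, whose transport substrate is not firmly known, rose in all 4 groups as well. In hCYP2B6-Tg females, Slc22a18 stood at 85.9, 72.5, 76.5 and 80.9 CPM at 0-PFOS, 103, 64.9, 99.1 and 92.8 CPM at 1-PFOS and 137, 128, 141 and 139 CPM at 10-PFOS. In Cyp2b-null females, Slc22a18 stood at 79.7, 65.8, 84.2 and 83.0 CPM at 0-PFOS, 102, 68.5, 90.4 and 112 CPM at 1-PFOS and 172, 144, 175 and 121 CPM at 10-PFOS. The 1-PFOS females overlapped the untreated ones, and the 10-PFOS females lay above both. In hCYP2B6-Tg males, Slc22a18 stood at 93.3, 82.7, 84.3 and 80.5 CPM at 0-PFOS, 132, 123, 108 and 113 CPM at 1-PFOS and 165, 172, 170.5 and 185 CPM at 10-PFOS. In Cyp2b-null males, Slc22a18 stood at 84.6, 93.9, 80.3 and 94.7 CPM at 0-PFOS, 124, 114, 96.9 and 97.5 CPM at 1-PFOS and 196, 199, 183 and 156 CPM at 10-PFOS. Here the 1-PFOS males lay above all untreated males in both genotypes, and the 10-PFOS males lay above the 1-PFOS males. The rise at 1-PFOS passed in hCYP2B6-Tg males (edgeR, adjusted p = 0.0014) and not in Cyp2b-null males (adjusted p = 0.089). In Cyp2b-null males the nearest values were 94.7 CPM untreated and 96.9 CPM at 1-PFOS. Against 0-PFOS, 10-PFOS changed Slc22a18 on the log2 scale by 0.78 ± 0.15 (adjusted p = 2.3e-04) in hCYP2B6-Tg females, 0.96 ± 0.15 (adjusted p = 2.9e-05) in Cyp2b-null females, 0.99 ± 0.10 (adjusted p = 9.4e-09) in hCYP2B6-Tg males and 1.03 ± 0.10 (adjusted p = 5.6e-09) in Cyp2b-null males (edgeR).

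**Figure D3:**
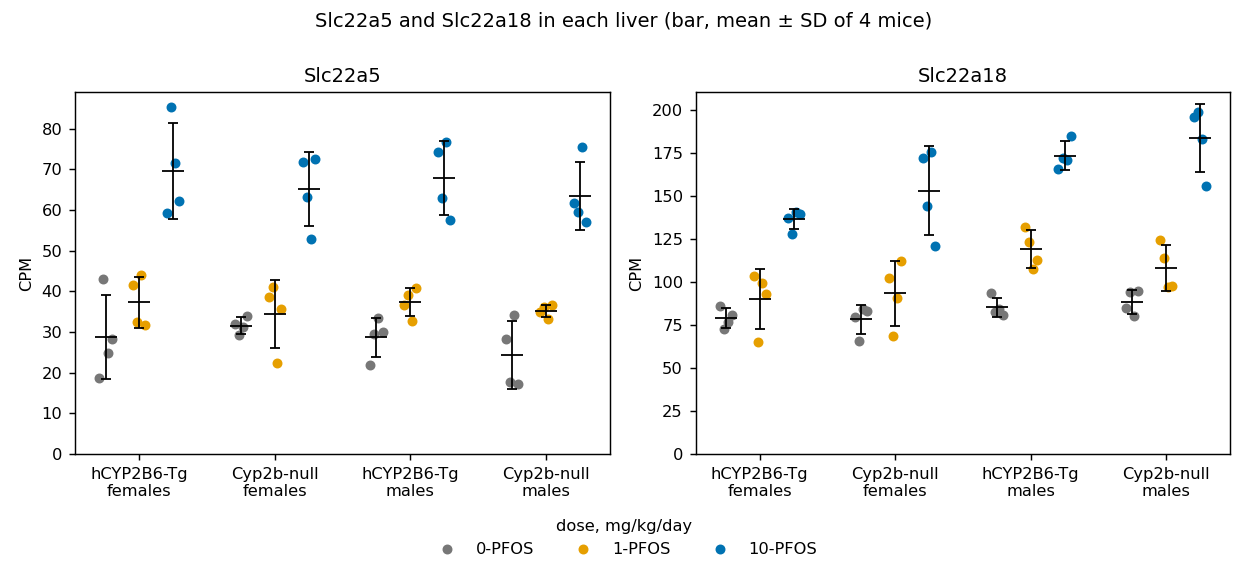
CPM of Slc22a5 and Slc22a18 by dose (0, 1 and 10 mg/kg/day PFOS), sex and genotype on a linear axis, with each mouse as a point and the mean ± SD of 4 mice as bars. The 10-PFOS mice sit at 52.9 to 85.4 CPM for Slc22a5 and 121 to 199 CPM for Slc22a18, above the untreated mice at 17.2 to 43.0 and 65.8 to 94.7 CPM.

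Slc22a7, the hepatocyte anion transporter Oat2, had the lowest fitted fold change of the 8 in 3 of the 4 groups. In hCYP2B6-Tg females, Slc22a7 stood at 21.0, 2.64, 8.66 and 3.40 CPM at 0-PFOS, 2.15, 2.70, 2.23 and 3.97 CPM at 1-PFOS and 0.0777, 0.334, 0.244 and 0.315 CPM at 10-PFOS. In Cyp2b-null females, Slc22a7 stood at 8.66, 4.995, 7.66 and 8.06 CPM at 0-PFOS, 6.62, 3.77, 4.95 and 4.77 CPM at 1-PFOS and 0.215, 0.135, 0.295 and 0.114 CPM at 10-PFOS. All 8 females at 10-PFOS were at most 0.334 CPM, and the untreated hCYP2B6-Tg females were the most uneven group, with replicate 1 well above the other 3. In hCYP2B6-Tg males, Slc22a7 stood at 12.3, 17.1, 9.34 and 8.50 CPM at 0-PFOS, 4.85, 6.26, 6.87 and 4.79 CPM at 1-PFOS and 0.502, 0.259, 0.418 and 0.270 CPM at 10-PFOS. In Cyp2b-null males, Slc22a7 stood at 7.91, 12.9, 7.52 and 13.3 CPM at 0-PFOS, 7.78, 6.68, 9.81 and 11.9 CPM at 1-PFOS and 0.143, 1.00, 0.281 and 0.381 CPM at 10-PFOS. Of the 10-PFOS males the highest was Cyp2b-null replicate 2, at 1.00 CPM, and the next was at 0.502 CPM. By edgeR, the 10-PFOS log2 fold change was -5.20 ± 0.56 (adjusted p = 1.3e-07) in hCYP2B6-Tg females, -5.29 ± 0.57 (adjusted p = 1.6e-07) in Cyp2b-null females, -5.05 ± 0.38 (adjusted p = 1.4e-10) in hCYP2B6-Tg males and -4.54 ± 0.37 (adjusted p = 8.4e-10) in Cyp2b-null males. It was -4.33 (edgeR, adjusted p = 7.3e-08) without untreated hCYP2B6-Tg female replicate 1, and -5.27 (adjusted p = 1.8e-10) without 10-PFOS Cyp2b-null male replicate 2.

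Slc22a26 was a female-high gene in untreated liver and lost most of its level in treated females. In hCYP2B6-Tg females, Slc22a26 stood at 165, 154, 139 and 143 CPM at 0-PFOS, 96.7, 96.2, 87.0 and 73.7 CPM at 1-PFOS and 3.61, 3.46, 2.93 and 3.54 CPM at 10-PFOS. In Cyp2b-null females, Slc22a26 stood at 139.7, 127, 141 and 174 CPM at 0-PFOS, 109, 132, 108 and 117 CPM at 1-PFOS and 1.45, 1.65, 1.74 and 11.1 CPM at 10-PFOS. The 1-PFOS hCYP2B6-Tg females all lay below the untreated ones without passing the test, and Cyp2b-null replicate 4 at 10-PFOS stood apart from the other 3 of its group. The 6 female groups share 1 estimate of the spread in the fit, and that replicate is part of it. Its part in the 1-PFOS result was not tested. In hCYP2B6-Tg males, Slc22a26 stood at 1.92, 0.769, 0.992 and 0.752 CPM at 0-PFOS, 0.862, 0.342, 1.28 and 0.497 CPM at 1-PFOS and 0.0402, 0.449, 0.380 and 0.324 CPM at 10-PFOS. In Cyp2b-null males, Slc22a26 stood at 4.71, 2.58, 12.8 and 1.39 CPM at 0-PFOS, 0.764, 0.492, 1.11 and 0.798 CPM at 1-PFOS and 0.451, 0.375, 0.241 and 0.191 CPM at 10-PFOS. The lowest male value, 0.0402 CPM, rested on a count of 2, and in males this gene passed the filter on low counts (over 1 CPM in at least 3 mice of a group) through the untreated Cyp2b-null group alone. Its call against that group is therefore no support for a difference. For 10-PFOS against 0-PFOS, edgeR gave a log2 fold change of -5.48 ± 0.46 (adjusted p = 3.6e-09) in hCYP2B6-Tg females, -5.19 ± 0.45 (adjusted p = 8.9e-09) in Cyp2b-null females, -1.88 ± 0.60 (adjusted p = 0.012) in hCYP2B6-Tg males and -4.11 ± 0.62 (adjusted p = 9.5e-06) in Cyp2b-null males. It was -6.49 (edgeR, adjusted p = 3.5e-18) without that 10-PFOS Cyp2b-null female, -3.21 (adjusted p = 4.2e-05) without untreated Cyp2b-null male replicate 3, and no longer passed without untreated hCYP2B6-Tg male replicate 1, at -1.504 (adjusted p = 0.053).

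**Figure D4:**
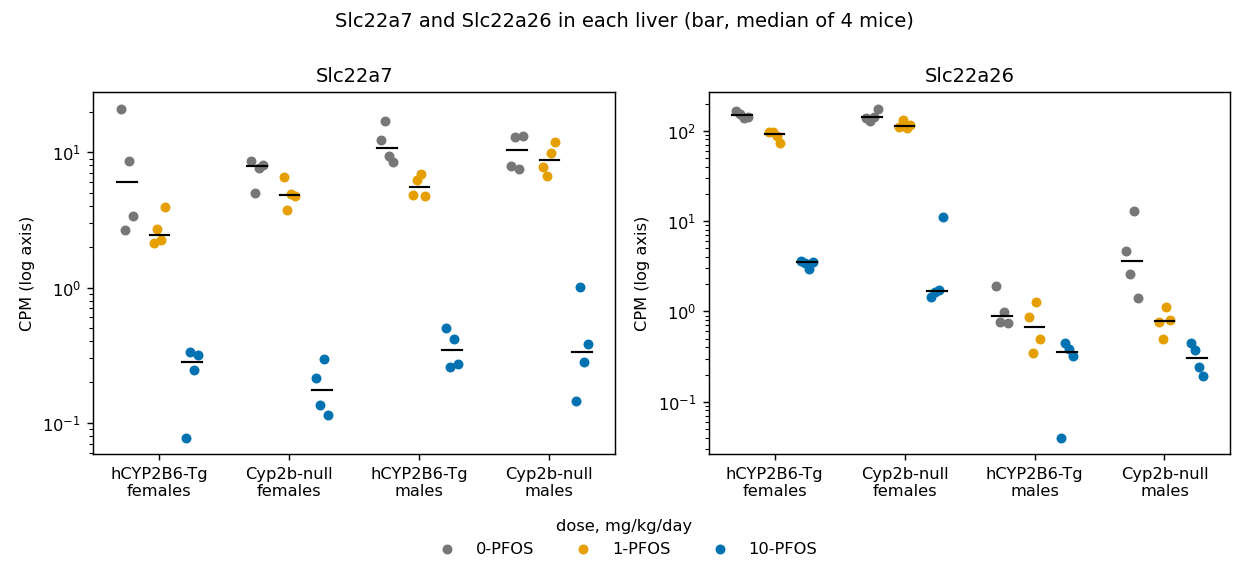
CPM of Slc22a7 and Slc22a26 by dose, sex and genotype on a log axis, with each mouse as a point and the median of 4 mice as a bar. Slc22a7 is at most 1.00 CPM at 10-PFOS and at least 2.64 CPM untreated, and Slc22a26 is 127 to 174 CPM in untreated females against 0.752 to 12.8 CPM in untreated males.

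Slc22a27 and Slc22a29, the first pair with shared sequence, fell in both sexes. In hCYP2B6-Tg females, Slc22a27 stood at 50.5, 53.3, 48.9 and 49.7 CPM at 0-PFOS, 34.0, 43.0, 36.6 and 28.1 CPM at 1-PFOS and 7.77, 4.25, 7.04 and 10.7 CPM at 10-PFOS. In Cyp2b-null females, Slc22a27 stood at 46.7, 50.4, 54.9 and 46.7 CPM at 0-PFOS, 28.9, 37.3, 36.8 and 33.2 CPM at 1-PFOS and 17.3, 13.5, 18.9 and 8.99 CPM at 10-PFOS. In both female groups the 1-PFOS mice already lay below every untreated mouse, although the fall at 1-PFOS passed the test in neither. In hCYP2B6-Tg males, Slc22a27 stood at 27.0, 39.5, 37.2 and 37.3 CPM at 0-PFOS, 29.3, 34.9, 28.6 and 39.3 CPM at 1-PFOS and 7.03, 12.1, 10.1 and 11.5 CPM at 10-PFOS. In Cyp2b-null males, Slc22a27 stood at 34.5, 31.5, 26.6 and 26.6 CPM at 0-PFOS, 29.8, 34.2, 34.5 and 36.3 CPM at 1-PFOS and 10.5, 12.8, 11.5 and 9.03 CPM at 10-PFOS. The 0-PFOS and 1-PFOS males overlapped, and the 10-PFOS males lay below both. Slc22a29 ran beside it, at 4.37 to 10.6 CPM in 10-PFOS hCYP2B6-Tg females against 47.5 to 52.4 CPM in untreated ones and at 9.49 to 13.8 CPM in 10-PFOS Cyp2b-null males against 26.9 to 37.1 CPM in untreated ones.

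Slc22a27's log2 fold change at 10-PFOS against 0-PFOS by edgeR was -2.78 ± 0.22 (adjusted p = 1.1e-09) in hCYP2B6-Tg females, -1.77 ± 0.21 (adjusted p = 5.9e-07) in Cyp2b-null females, -1.83 ± 0.15 (adjusted p = 1.2e-09) in hCYP2B6-Tg males and -1.46 ± 0.15 (adjusted p = 4.4e-08) in Cyp2b-null males. For Slc22a29 it was -2.76 ± 0.22 (edgeR, adjusted p = 1.6e-09) in hCYP2B6-Tg females, -1.74 ± 0.21 (adjusted p = 9.2e-07) in Cyp2b-null females, -1.90 ± 0.16 (adjusted p = 9.1e-10) in hCYP2B6-Tg males and -1.53 ± 0.16 (adjusted p = 3.0e-08) in Cyp2b-null males. For both genes the lowest of the 4 values was that of hCYP2B6-Tg females.

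Slc22a28 and Slc22a30, the pair with near-identical promoters, fell in all 4 groups at 10-PFOS. In hCYP2B6-Tg females, Slc22a28 stood at 98.0, 47.7, 63.6 and 55.95 CPM at 0-PFOS, 65.9, 81.8, 56.6 and 58.1 CPM at 1-PFOS and 15.3, 8.14, 12.4 and 24.5 CPM at 10-PFOS. In Cyp2b-null females, Slc22a28 stood at 66.3, 72.5, 72.4 and 75.8 CPM at 0-PFOS, 65.3, 72.9, 55.6 and 71.2 CPM at 1-PFOS and 28.4, 28.2, 35.3 and 17.9 CPM at 10-PFOS. The 1-PFOS females overlapped the untreated ones in both genotypes, and untreated hCYP2B6-Tg replicate 1 was the highest female. In hCYP2B6-Tg males, Slc22a28 stood at 77.2, 113, 104 and 116 CPM at 0-PFOS, 86.0, 98.2, 88.8 and 115 CPM at 1-PFOS and 18.1, 23.4, 26.8 and 28.0 CPM at 10-PFOS. In Cyp2b-null males, Slc22a28 stood at 93.7, 95.8, 60.5 and 80.5 CPM at 0-PFOS, 90.8, 107, 105 and 102 CPM at 1-PFOS and 22.8, 28.7, 27.1 and 21.9 CPM at 10-PFOS. Males overlapped at the 2 lower doses as well. Slc22a30 was at 9.56 to 26.9 CPM in 10-PFOS hCYP2B6-Tg females against 57.1 to 114 CPM in untreated ones, and at 20.1 to 31.8 CPM in 10-PFOS hCYP2B6-Tg males against 88.1 to 135 CPM in untreated ones.

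Slc22a28's log2 fold change at 10-PFOS against 0-PFOS by edgeR was -2.15 ± 0.26 (adjusted p = 6.0e-07) in hCYP2B6-Tg females, -1.39 ± 0.25 (adjusted p = 1.3e-04) in Cyp2b-null females, -2.12 ± 0.16 (adjusted p = 9.5e-11) in hCYP2B6-Tg males and -1.74 ± 0.15 (adjusted p = 2.8e-09) in Cyp2b-null males. For Slc22a30 it was -2.21 ± 0.24 (edgeR, adjusted p = 1.8e-07) in hCYP2B6-Tg females, -1.40 ± 0.24 (adjusted p = 6.3e-05) in Cyp2b-null females, -2.15 ± 0.16 (adjusted p = 9.4e-11) in hCYP2B6-Tg males and -1.75 ± 0.15 (adjusted p = 2.6e-09) in Cyp2b-null males. The summed counts of the 5 cluster genes do not depend on which of the 5 a read was assigned to. Reads counted for several genes, or left out, would still alter the sum, and their handling is not stated. The summed level of the 5 genes averaged 50.6 ± 19.6 CPM in 10-PFOS against 396 ± 54.4 CPM in untreated hCYP2B6-Tg females, and 93.2 ± 19.7 against 401 ± 25.0 CPM in Cyp2b-null females (SD, n = 4 each). In males it averaged 72.8 ± 13.4 against 297 ± 50.7 CPM in hCYP2B6-Tg and 76.5 ± 10.2 against 246 ± 37.4 CPM in Cyp2b-null. As 1 row of the edgeR fit the sum changed by -2.98 ± 0.21 (adjusted p = 2.2e-10), -2.11 ± 0.20 (adjusted p = 2.8e-08), -2.08 ± 0.15 (adjusted p = 7.1e-11) and -1.72 ± 0.15 (adjusted p = 1.6e-09) on the log2 scale, in that order of groups.

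**Figure D5:**
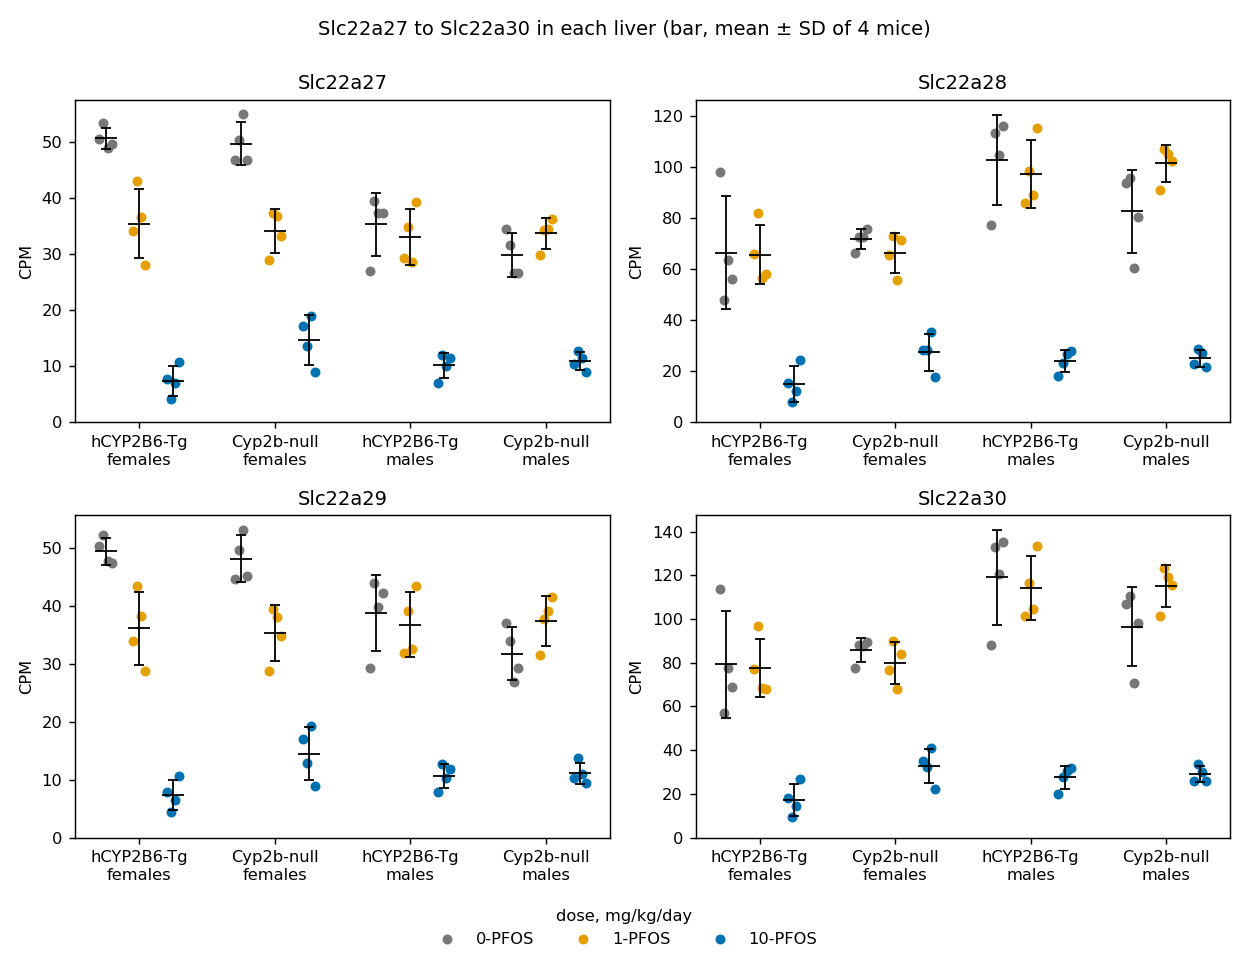
CPM of Slc22a27, Slc22a28, Slc22a29 and Slc22a30 by dose, sex and genotype on a linear axis, with each mouse as a point and the mean ± SD of 4 mice as bars. At 10-PFOS all 16 mice lie at 4.25 to 18.9 CPM for Slc22a27 and 8.14 to 35.3 CPM for Slc22a28, below the untreated mice at 26.6 to 54.9 and 47.7 to 116 CPM.

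The lower dose addressed whether the response began at 1 mg/kg/day. Few members passed at 1-PFOS against 0-PFOS: Slc22a7 in hCYP2B6-Tg females, Slc22a7 and Slc22a18 in hCYP2B6-Tg males, and Slc22a26 in Cyp2b-null males. That is 1 of 8 in hCYP2B6-Tg females (beside 2.27% of all genes tested), 0 of 8 in Cyp2b-null females (0.697%), 2 of 8 in hCYP2B6-Tg males (14.7%) and 1 of 8 in Cyp2b-null males (3.62%). The 1 in Cyp2b-null males, Slc22a26, had passed the filter on low counts through the untreated mice of that group alone, so its lower values at 1-PFOS are a description and add nothing to the count. In Cyp2b-null females, where edgeR called 0 members, 2 had an unadjusted p below 0.05 and DESeq2 called 0. Slc22a18 averaged 119 ± 11.0 CPM in 1-PFOS and 85.2 ± 5.61 CPM in untreated hCYP2B6-Tg males (SD, n = 4 each), a log2 fold change of 0.48 ± 0.09 (adjusted p = 0.0014) by edgeR, and the 4 mice of each group did not overlap. The share of all genes without overlap was not counted at 1-PFOS, so each such separation at this dose is a description. Slc22a7 fell by edgeR with a log2 fold change of -1.05 ± 0.30 (adjusted p = 0.018) in hCYP2B6-Tg males. This call was lost without untreated replicate 2, without 1-PFOS replicate 1 or without 1-PFOS replicate 4 (edgeR, adjusted p = 0.079, 0.052 and 0.052).

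In hCYP2B6-Tg females, the log2 fold change of Slc22a7 at 1-PFOS was -1.70 ± 0.44 (adjusted p = 0.043) by edgeR. It rested on untreated replicate 1 and was -0.83 (edgeR, adjusted p = 0.26) without it. The call was also lost without untreated replicate 3 or any of 1-PFOS replicates 1, 2 and 3 (edgeR, adjusted p = 0.071 to 0.17), in a fit of the compared groups alone (0.23), and with the replicate number as a block (log2 fold change -1.44, adjusted p = 0.083). The log2 fold change of Slc22a26 in Cyp2b-null males was -2.76 ± 0.56 (edgeR, adjusted p = 0.0054), and -1.86 (adjusted p = 0.041) without untreated replicate 3, the highest of that group. It did not pass in a fit of the compared groups alone (edgeR, adjusted p = 0.071).

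Between the doses, 10-PFOS against 1-PFOS, nearly all members differed. All 8 passed in hCYP2B6-Tg females (38.1% of all genes tested passed) and in Cyp2b-null females (34.6%), and 7 of 8 in hCYP2B6-Tg males (38.3%) and in Cyp2b-null males (38.2%). The member that did not pass in males was Slc22a26, with a log2 fold change by edgeR of -1.30 ± 0.61 (adjusted p = 0.095) in hCYP2B6-Tg and -1.35 ± 0.62 (adjusted p = 0.089) in Cyp2b-null. In males all 10-PFOS values of this gene were at most 0.451 CPM, and its 1-PFOS values were at most 1.28 CPM.

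The comparison of genotypes asked whether transporter levels differed between mice with and without the human CYP2B6/2A13/2F1 transgene. In untreated livers no member passed in either sex, and at 10-PFOS members passed in females alone, where 3 of the cluster genes were lower in hCYP2B6-Tg. Slc22a27 averaged 7.44 ± 2.65 CPM in hCYP2B6-Tg and 14.7 ± 4.42 CPM in Cyp2b-null females at 10-PFOS, and Slc22a30 averaged 17.3 ± 7.32 and 32.6 ± 7.79 CPM in the same groups (SD, n = 4 each). The log2 fold changes of hCYP2B6-Tg against Cyp2b-null by edgeR were -0.98 ± 0.21 (adjusted p = 0.018) for Slc22a27, -0.99 ± 0.21 (adjusted p = 0.018) for Slc22a29 and -0.92 ± 0.24 (adjusted p = 0.034) for Slc22a30. For Slc22a28 the value was -0.87 ± 0.25 (edgeR, adjusted p = 0.055). The mice of the 2 genotypes overlapped for all 8 genes. The 3 called of 8 stood beside 3.59% of all genes tested. None of the 3 calls held in a fit of the compared groups alone (edgeR, adjusted p = 0.12 to 0.14), and the number called was 0 without 10-PFOS Cyp2b-null replicate 1 or 3 or without 10-PFOS hCYP2B6-Tg replicate 2 and ran between 0 and 5 over the 8 single omissions.

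In the other genotype comparisons edgeR called 0 of 8 members. In females 0 were called at 0-PFOS (0% of all genes tested) and at 1-PFOS (0%), with 0 unadjusted p below 0.05 at either dose and 0 calls by DESeq2. In males 0 were called at 0-PFOS (0% of all genes), with 2 unadjusted p below 0.05 and 1 call by DESeq2, 0 at 1-PFOS (0.889%), with 1 unadjusted and 0 by DESeq2, and 0 at 10-PFOS (0.0556%), with 0 unadjusted and 0 by DESeq2. The 1 call by DESeq2 was Slc22a26 in untreated males, at 1.92, 0.769, 0.992 and 0.752 CPM in hCYP2B6-Tg against 4.71, 2.58, 12.8 and 1.39 CPM in Cyp2b-null. These values overlapped, and the log2 fold change by edgeR was -2.28 (95% interval -3.41 to -1.15, adjusted p = 0.23). In males Slc22a26 passed the filter on low counts through that untreated Cyp2b-null group alone. The DESeq2 call is therefore no support for a difference. For Slc22a5 in untreated females the log2 difference was -0.14 (95% interval -0.56 to 0.27, adjusted p = 0.9992), and for Slc22a18 it was 0.01 (95% interval -0.30 to 0.32, adjusted p = 0.9992).

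Whether the 2 genotypes responded to PFOS by different amounts was tested directly as an interaction. edgeR called 0 of 8 members for the 1-PFOS response in females (0% of all genes tested) and in males (0.0556%), and for the 10-PFOS response in females (0%) and in males (0%). The unadjusted p was below 0.05 for 0, 1, 4 and 1 members in these 4 tests, and DESeq2 called 0 in each. The 4 in females were the members from Slc22a27 to Slc22a30, and the difference for Slc22a27 was -1.01 (95% interval -1.61 to -0.41, adjusted p = 0.26).

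Females and males were set against each other in a fit of all 48 libraries. Slc22a26 was far higher in females of both genotypes, and Slc22a27 was moderately higher. In untreated mice Slc22a26 averaged 150.3 ± 11.5 CPM in females and 1.11 ± 0.554 CPM in males of hCYP2B6-Tg, and 145 ± 20.3 CPM in females and 5.36 ± 5.13 CPM in males of Cyp2b-null (SD, n = 4 each). Females against males, the log2 fold change by edgeR was 7.09 ± 0.56 (adjusted p = 6.5e-13) in hCYP2B6-Tg and 4.76 ± 0.49 (adjusted p = 9.6e-10) in Cyp2b-null, and in Cyp2b-null it was 5.65 (adjusted p = 5.9e-11) without untreated male replicate 3. Of the 5 cluster genes' summed CPM, Slc22a26 made up 38.2% in hCYP2B6-Tg and 36.2% in Cyp2b-null untreated females, but 0.412% and 2.42% in males of the same genotypes. The male shares rested partly on 1 mouse each, and were 0.262% without replicate 1 in hCYP2B6-Tg and 1.08% without replicate 3 in Cyp2b-null. Its share at 10-PFOS was 7.46% in females of hCYP2B6-Tg and 5.22% in those of Cyp2b-null, and in Cyp2b-null it was 16.04% in replicate 4 and averaged 1.61% in the other three.

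For Slc22a27 the untreated difference was 0.52 ± 0.18 (adjusted p = 0.037) in hCYP2B6-Tg and 0.74 ± 0.18 (adjusted p = 0.0057) in Cyp2b-null on the log2 scale by edgeR. Slc22a29 passed in Cyp2b-null, at 0.60 ± 0.19 (edgeR, adjusted p = 0.028), and not in hCYP2B6-Tg, at 0.35 ± 0.19 (adjusted p = 0.18). Slc22a28 and Slc22a30 ran the other way in hCYP2B6-Tg, lower in females, at -0.63 ± 0.21 (edgeR, adjusted p = 0.029) and -0.59 ± 0.20 (adjusted p = 0.034). In all, 4 of 8 members were called in untreated hCYP2B6-Tg (21.8% of all genes tested) and 3 of 8 in untreated Cyp2b-null (12.8%). In hCYP2B6-Tg, the calls of Slc22a28 and Slc22a30 were lost with the replicate number as a block (log2 fold change -0.36 and -0.30, adjusted p = 0.40 and 0.48) and in a fit of the compared groups alone (edgeR, adjusted p = 0.058 and 0.067). Of the 8 mice compared in hCYP2B6-Tg, leaving out any of 7 ended the call of Slc22a27, any of 5 that of Slc22a28 and any of 6 that of Slc22a30. In Cyp2b-null, leaving out any of 5 of the 8 ended the call of Slc22a29.

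At 10-PFOS, Slc22a26 remained higher in females, at 3.61, 3.46, 2.93 and 3.54 CPM in females and 0.0402, 0.449, 0.380 and 0.324 CPM in males of hCYP2B6-Tg, and 1.45, 1.65, 1.74 and 11.1 CPM in females and 0.451, 0.375, 0.241 and 0.191 CPM in males of Cyp2b-null. The sexes did not overlap in either genotype. The log2 fold change by edgeR was 3.44 ± 0.60 (adjusted p = 2.7e-04) in hCYP2B6-Tg and 3.69 ± 0.61 (adjusted p = 1.8e-04) in Cyp2b-null, and in Cyp2b-null 2.36 (adjusted p = 0.0095) without 10-PFOS female replicate 4. In a fit of the compared groups alone the Cyp2b-null call was lost, at 3.68 (edgeR, adjusted p = 0.052). Slc22a28 and Slc22a30 were lower in hCYP2B6-Tg females than in males of that genotype, at -0.67 ± 0.22 (edgeR, adjusted p = 0.046) and -0.67 ± 0.21 (adjusted p = 0.038). These 2 calls were lost without the filter on low counts, with the replicate block, in a fit of the compared groups alone and on leaving out 10-PFOS female replicate 1, 2 or 3 or male replicate 2, 3 or 4. In all, 3 of 8 were called in hCYP2B6-Tg (7.47% of all genes tested) and 1 of 8 in Cyp2b-null (0.942%).

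The response to 10-PFOS differed between the sexes for 3 members in hCYP2B6-Tg mice, all falling further in females. The difference of the 2 log2 fold changes, females minus males, was -3.65 ± 0.85 (adjusted p = 0.0062) for Slc22a26, -0.97 ± 0.26 (adjusted p = 0.019) for Slc22a27 and -0.89 ± 0.27 (adjusted p = 0.037) for Slc22a29 by edgeR. Over all genes tested 6.5% were called. Counts of Slc22a26 in hCYP2B6-Tg males were 40 to 104 untreated and 2 to 30 at 10-PFOS. Such low counts limit how far it could fall there, so the size of its difference is uncertain. In Cyp2b-null mice 0 of 8 were called by edgeR and 0 by DESeq2, with 0 unadjusted p below 0.05 (0.949% of all genes tested). For Slc22a26 the difference in that genotype was -1.07 (95% interval -2.72 to 0.57, adjusted p = 0.66), and for Slc22a27 it was -0.32 (95% interval -0.85 to 0.22, adjusted p = 0.7). In hCYP2B6-Tg the call of Slc22a27 was lost without 10-PFOS female replicate 2 or untreated male replicate 1 (edgeR, adjusted p = 0.061 for each), and that of Slc22a29 on leaving out any of 9 of the 16 mice. In a fit of the compared groups alone the call of Slc22a26 was the only one to hold.

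Among 17 other Slc22 genes, 7 were expressed highly enough to be tested. The 10 others, among them the kidney transporters Slc22a6, Slc22a8 and Slc22a12, were at most 0.689 CPM in any library. At 10-PFOS 4 of the 7 tested rose in hCYP2B6-Tg females, 2 in Cyp2b-null females, 4 in hCYP2B6-Tg males and 2 in Cyp2b-null males, beside 22.3%, 19.1%, 24.1% and 22.5% of all genes tested in the same order of groups. In each of these groups 2 of the 7 fell, beside 24.5%, 17.8%, 23.9% and 21.6% of all genes tested. Slc22a21 (Octn3), a carnitine transporter known from mice, averaged 21.3 ± 4.01 CPM in 10-PFOS against 9.25 ± 3.65 CPM in untreated hCYP2B6-Tg females, and 19.5 ± 2.43 against 7.66 ± 2.37 CPM in Cyp2b-null males (SD, n = 4 each). It rose in all 4 groups. Slc22a4 (Octn1), a transporter of ergothioneine, also rose in all 4. Slc22a15 rose in hCYP2B6-Tg females and males, and Slc22a3 (Oct3), an organic cation transporter, in the same groups.

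The log2 fold change by edgeR of Slc22a4 was 1.19 ± 0.18 (adjusted p = 8.5e-06) in hCYP2B6-Tg females and 0.49 ± 0.17 (adjusted p = 0.028) in Cyp2b-null females. For Slc22a3 it was 1.57 ± 0.30 (edgeR, adjusted p = 1.3e-04) in hCYP2B6-Tg males and 0.57 ± 0.29 (adjusted p = 0.11) in Cyp2b-null males. Slc22a2, named after its values were seen, fell in 3 of the 4 groups, and Slc22a23, named likewise, fell in hCYP2B6-Tg females.

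Carnitine links Slc22a5 to fatty acid oxidation, so 12 genes of carnitine transport, synthesis and use were read beside it (11 tested in females, 10 in males). Slc22a21 belongs both to this list and to the other Slc22 genes above, and is counted in both. At 10-PFOS 6 rose in hCYP2B6-Tg females, 5 in Cyp2b-null females, 6 in hCYP2B6-Tg males and 7 in Cyp2b-null males, and 0 fell in any of the 4 groups by edgeR. The share of all genes tested that rose was 22.3%, 19.1%, 24.1% and 22.5% in that order of groups. The median log2 fold change of the carnitine genes was 0.69, 0.34, 0.64 and 0.71 in that order of groups. Crat, which makes acetylcarnitine, changed by 1.84 ± 0.18 (edgeR, adjusted p = 4.1e-08), 1.26 ± 0.18 (adjusted p = 8.7e-06), 1.52 ± 0.17 (adjusted p = 1.4e-07) and 1.40 ± 0.17 (adjusted p = 5.6e-07) on the log2 scale. Cpt2, which releases acyl groups from carnitine inside mitochondria, averaged 262 ± 16.2 CPM in 10-PFOS and 97.9 ± 7.71 CPM in untreated hCYP2B6-Tg females (SD, n = 4 each). Slc25a20, the mitochondrial carnitine-acylcarnitine carrier, changed by 1.46 ± 0.13 (edgeR, adjusted p = 4.3e-09) in that group and by 0.90 ± 0.09 (adjusted p = 4.3e-08) in Cyp2b-null males. At 1-PFOS, 3 of the carnitine genes rose in hCYP2B6-Tg females, 0 in Cyp2b-null females, 6 in hCYP2B6-Tg males and 5 in Cyp2b-null males, beside 1.69%, 0.432%, 8.72% and 2.32% of all genes tested. Of the other Slc22 genes, 1 rose in males of each genotype and 0 in females.

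Genes outside the family were ranked by the Pearson correlation of log2 CPM with each member over the 48 libraries, and the 3 highest for each were taken. The points share dose, sex and genotype, so r is given as a description. Slc22a5 ran most closely with Acot1 (r = 0.927), Acad11 (0.925) and Acot2 (0.924). Slc22a18 ran with Reep6 (0.955), Capns1 (0.953) and Anxa7 (0.952). Slc22a7 ran with Gm3734 (0.966), AI182371 (0.958) and Ghr (0.952), the growth hormone receptor. Slc22a26 ran with Prlr (0.931), the prolactin receptor, Fmo6 (0.923) and A1bg (0.920). Slc22a27 and Slc22a29 shared Nxpe2 (0.933 and 0.946), Gm32643 (0.929 and 0.941) and Ghr (0.928 and 0.944). Slc22a28 ran with Sdr9c7 (0.962), Hao1 (0.954) and Adh4 (0.952), and Slc22a30 with Sdr9c7 (0.964), Hao1 (0.954) and AI182371 (0.950).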

How the data were processed

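RNA from about 20 mg of liver of each of 48 mice was sequenced from polyA-selected libraries. The authors deposited raw counts per gene, 1 table for each sex, and their processing notes name FastQC, Trim Galore, RSEM, featureCounts, edgeR and the build GRCm39. No source used here gives the versions, the counting options or the treatment of reads that match several genes. Each table held 40872 rows. The 25 whose gene name was broken (0.0432% of counts in females, 0.0281% in males) were left out, and 40847 genes remained. Even numbers made up 91.1% of nonzero female counts and 91.2% of nonzero male counts. Total counts ran between 44416597 and 82615862 per library, and the lowest chi-square per degree of freedom between mice of a group was 36.3, so each library was counted as its own replicate. The other 168 processed files, which hold 64 per-sample columns, were not used.

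Groups came from the labels. Counts were fitted in edgeR 4.0.16 (R 4.3.3) by the quasi-likelihood test after TMM scaling (factors 0.915 to 1.11 in females, 0.753 to 1.21 in males), with 1 fit of 6 groups for each sex and 1 fit of all 48 libraries for comparisons between sexes. Genes over 1 CPM in at least 3 of the 4 mice of a group were kept, 13193 in females, 12594 in males and 13271 in both. P-values were adjusted by Benjamini-Hochberg over all of them, and a call is an adjusted p below 0.05. All 8 members passed this filter in each fit. The members and lists were chosen with earlier results of these data known. Named in the text are the 8 members, the listed genes that were called at 10-PFOS with an absolute log2 change above 1 in at least 1 group, and the 3 genes most correlated with each member (log2 CPM, prior count 2). The scripts were tested on simulated data.

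Alternatives were DESeq2 1.42.0, DESeq2 size factors, no filter, a stricter filter, counts divided by 2, a fit of the compared groups alone, the replicate number as a block, single omissions and the summed cluster. Same-numbered mice deviated together, every correlation over 0.1, in 1 of 18 comparisons checked, and the labels do not say that numbers pair mice. Exon lengths and transcripts came from GENCODE vM21 and promoters from RefSeq (GRCm38.p6). Neither was used for coordinates of the counts. Promoters were aligned with Biopython 1.88. Some results on other Slc22 genes are not reported here.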

Additional observations from a re-analysis of the deposited data

Results flagged for a closer look

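In 10-PFOS Cyp2b-null females, Slc22a26 stood at 11.1 CPM in replicate 4 and at 1.45 to 1.74 CPM in the other 3, a gap that is large for 4 values. In untreated Cyp2b-null females, Slc22a30 stood at 77.4 CPM in replicate 1 and at 87.7 to 89.6 CPM in the other 3. These were 2 of 96 sets of 4 mice examined, and chance alone gives about 1 in 20.

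In hCYP2B6-Tg mice the log2 response to 10-PFOS differed between females and males by -3.65 for Slc22a26, -0.97 for Slc22a27 and -0.89 for Slc22a29, each past the test of the difference itself (edgeR, adjusted p = 0.0062, 0.019 and 0.037). The values of Slc22a27 and Slc22a29 come from genes that share sequence and count as 1 observation. The size of the Slc22a26 difference is uncertain, because its male counts were 40 to 104 untreated and 2 to 30 at 10-PFOS. The hepatocyte marker sum was lower at 10-PFOS than untreated in both sexes, and its part in these differences was not tested.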

How the results depend on the processing

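Of 83 called values of single members, 1157 of 1246 alternative values kept direction and call, 89 lost the call and 0 reversed. At 10-PFOS against 0-PFOS, 1 of 471 lost it. Alternatives in which a gene was dropped or had no adjusted p are not among these values. With such genes taken as not called, the 8 calls became as few as 7 in each female group and 6 in each male group. These numbers include calls of Slc22a26 against untreated Cyp2b-null males, through whom alone it passed the filter in males. At 1-PFOS in hCYP2B6-Tg females the 1 call became 0 under the stricter filter, which drops Slc22a7, and 0 with the replicate block, and single omissions gave 0 to 1. In Cyp2b-null males 1 became 0 under the stricter filter, which drops Slc22a7 and Slc22a26, 0 in a fit of the compared groups and 2 with DESeq2, and omissions gave 1 to 2. In hCYP2B6-Tg males 2 became 1 under the stricter filter, and omissions gave 1 to 2. In Cyp2b-null females 0 became 1 in a fit of the compared groups. Between genotypes, the 3 calls at 10-PFOS in females became 0 in a fit of the compared groups, and omissions gave 0 to 5. Omissions gave 0 to 1 for the genotype difference of the 10-PFOS response in females, and DESeq2 called 1 gene in untreated males. That gene was Slc22a26, which in males passed the filter through untreated Cyp2b-null mice alone. Between sexes in hCYP2B6-Tg, the 4 untreated calls became 2 with the replicate block and 2 in a fit of the compared groups (omissions 1 to 4), and the 3 at 10-PFOS became 1 with no filter and 1 with the replicate block (omissions 1 to 5). The 3 differences of the response became 1 in a fit of the compared groups (omissions 1 to 3). In Cyp2b-null the 1 call at 10-PFOS became 0 under the stricter filter, which drops Slc22a26, and 0 in a fit of the compared groups. Where no dropped gene is named, the cause was not tested. The labels do not pair mice by number. Where same-numbered mice did deviate together, between genotypes at 1-PFOS in females, 0 members were called with the replicate block and 0 without it. DESeq2 size factors and counts divided by 2 moved none of these counts by over 1.5 times, and DESeq2 gave no adjusted p for Slc22a26 in females. Depth limits Slc22a7 and male Slc22a26 at 10-PFOS, where counts fell as low as 4 and 2.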

Other observations

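Untreated hCYP2B6-Tg females were the most uneven untreated group for several members, a pattern chosen after the values were seen. Replicate 1 had the highest Slc22a7 (21.0 CPM), Slc22a28 (97.95 CPM) and Slc22a30 (114 CPM) and the lowest Slc22a5 (18.6 CPM). Replicate 2 had the lowest Slc22a7 (2.64 CPM), Slc22a28 (47.7 CPM) and Slc22a30 (57.2 CPM) and the highest Slc22a5 (43.0 CPM). Slc22a26 (139.0 to 165 CPM), Slc22a27 (48.9 to 53.3 CPM) and Slc22a29 (47.5 to 52.4 CPM) did not share this spread.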
